A study of Homo sapiens with 12 samples.

Results

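Chromatin accessibility was measured by ATAC-seq, in which a transposase inserts sequencing adapters into open DNA, at 43 genes of the cell polarity machinery out of 19970 protein-coding genes of the GENCODE 44 annotation. The members form 6 modules, with 8 genes of the Par complex, 8 of the Crumbs complex, 8 of the Scribble complex, 5 of the Par-1 and LKB1 kinases, 10 of planar cell polarity and 4 small GTPases and their exchange factors. All bins of 100 bp from the accessible regions of either cell line that lay within 50 kb of any annotated transcription start site (TSS) of a member were taken. Bins within 1 kb of a TSS of the member were called promoter bins and the others distal bins. In the DU-145 data this gave 4602 of 709366 bins, of which 873 were promoter and 3729 distal bins, in 437 of 79177 accessible regions. In the BT-549 data it gave 3585 of 472994 bins, 819 promoter and 2766 distal, in 316 of 46298 regions. DU-145 is a castration-resistant prostate cancer line and BT-549 is a triple-negative breast cancer line. Cells of both lines carried a tetracycline-inducible short hairpin RNA against MUC1 in a puromycin-selected lentiviral vector, also in the control samples. The 12 libraries were 3 biologically independent replicates of DU-145 with vehicle (0.1% DMSO), 3 of DU-145 with doxycycline (DOX), 3 of BT-549 with vehicle and 3 of BT-549 with DOX. DOX switches the hairpin on, so that silencing of MUC1 and exposure to DOX itself lie in the same contrast and cannot be told apart here. No library with a control hairpin was analysed here.

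Epithelial cells have an apical side, which faces a lumen, and a basolateral side, which faces neighbouring cells and matrix. The Par complex (PARD3, PARD6, atypical protein kinase C and CDC42) and the Crumbs complex (CRB, PALS1, PATJ and LIN7) mark the apical domain and the tight junction, while the Scribble complex (SCRIB, DLG and LLGL) and the MARK kinases, the mammalian Par-1 proteins, mark the basolateral domain. STK11 encodes LKB1, the kinase that activates the MARK kinases. Planar cell polarity, the alignment of cells within the plane of a tissue, is set by the membrane proteins VANGL and CELSR with the cytoplasmic proteins PRICKLE and DVL. RHOA and RAC1 are small GTPases of the actin cytoskeleton, and TIAM1 and ECT2 are exchange factors that load such GTPases with GTP.

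The deposited values were mean fragment coverage per bin. Their sum over a library was 12370094 to 25232000 in the 6 DU-145 libraries, 9142900 to 13606129 in BT-549 with vehicle and 2502510 to 3267024 in BT-549 with DOX, so that the last group had the shallowest data. Of the members' bins, 5.80 to 13.1% had a coverage under 1 in the BT-549 libraries with DOX. Values below are given as scaled coverage (CPM), that is, the bin's coverage divided by the library's sum and multiplied by 1000000, averaged over the bins of a feature unless the highest bin is named. The share of a library's coverage that lay in promoter bins of protein-coding genes moved with DOX, from 57.9-58.9% to 49.8-51.4% in DU-145 and from 57.7-57.9% to 61.8-62.6% in BT-549. Counts of members higher and lower were therefore also computed under other scalings of the libraries, and "under all 5 scalings" means with the library sum, TMM factors, loess offsets, offsets for GC content and DESeq2. The promoter of MUC1, the target of the hairpin, had 2.14, 2.14 and 1.97 CPM with vehicle and 1.48, 1.67 and 1.60 with DOX in DU-145 (log2 change -0.39 ± 0.0912 SE, adjusted p = 0.000354). In BT-549 it had 3.0, 3.47 and 2.92 with vehicle and 2.55, 2.57 and 2.64 with DOX (log2 change -0.28 ± 0.106 SE, adjusted p = 0.0525). Promoter accessibility is not a measure of hairpin knockdown, which acts on the RNA, so these values do not check the labels. In DU-145 39.0% of all promoters fell with DOX, at a median log2 change of -0.17. Of 8 epithelial marker genes, 7 had promoter bins in DU-145 and 3 in BT-549, where CDH1, EPCAM, KRT8 and KRT18 had none. Of 7 mesenchymal markers, 5 had promoter bins in DU-145, with none at TWIST1 and CDH2, and all 7 in BT-549. The prostate luminal marker KLK3 had no promoter bins in DU-145. In these bulk libraries, a change in the number of cells in which a site was open and a change in how open it was per cell cannot be told apart.

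Single accessible regions near the members were compared first, with opening and closing meaning a fold of at least 2 with an adjusted p under 0.05 in edgeR's quasi-likelihood test. In DU-145, 56 of the 437 regions (12.8%) opened with DOX and 13 (2.97%) closed, beside 23.6% opening and 5.49% closing among all regions. In BT-549, 32 of the 316 regions (10.1%) opened and 23 (7.28%) closed, beside 4.94% opening and 12% closing among all regions. The DU-145 regions thus opened and closed at lower shares than the whole table, while the BT-549 regions opened at a higher and closed at a lower share. These shares mix sites at and away from TSSs. Of the members' 144 distal BT-549 regions without a TSS of another gene, 12 opened and 22 closed. Of all 27416 BT-549 regions beyond 1 kb of every TSS, 1701 opened and 4781 closed. Of 152 BT-549 member regions with a highest bin under 20 in coverage, 24 opened (15.8%), against 8 of 164 (4.88%) at or over 20. The BT-549 count of opening regions rested in part on SCRIB, with 14 of its 25 regions opening, and without SCRIB it was 18 of 291 (6.19%). Under all 5 scalings, 25 opened and 13 closed in DU-145, and 23 opened and 11 closed in BT-549. The matching counts over all regions were not computed. The split depended on the scaling, with 30 opening and 46 closing regions in DU-145 under loess offsets, 44 and 32 under GC offsets and 48 and 25 with DESeq2. In BT-549 it was 42 and 13 under loess offsets and 35 and 16 with DESeq2. With DOX at least 1 region opened near 29 members in DU-145 and near 12 in BT-549, and at least 1 closed near 10 and 15 members. The share of all genes with such a region was not computed. These counts also depend on the number of regions and on the shares among all regions, so they are not a result about the members. Of the members' 437 DU-145 regions 377 were distal, as were 52 of the 56 opening and 12 of the 13 closing ones. Of the 316 BT-549 regions 256 were distal, as were 24 of the 32 opening and all 23 closing ones.

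To show the sites behind these calls, 7 regions that moved without overlap between vehicle and DOX libraries are printed as 300 bases of the GRCh38 plus strand around their highest bin, of which 6 were chosen because they hold the AP-1 motif, the binding sequence of JUN and FOS proteins, and the LLGL2 region for its large change without the motif. Of the 24 regions with the largest changes, 7 held the motif, and none of the 6 BT-549 opening regions among them did. TGACTCA is in capitals, and so is TGAGTCA, which is the same motif on the other strand. The first 4 opened and the fifth closed with DOX in DU-145, and the last 2 closed with DOX in BT-549.
DLG2 opening in DU-145, chr11:83448701-83449000: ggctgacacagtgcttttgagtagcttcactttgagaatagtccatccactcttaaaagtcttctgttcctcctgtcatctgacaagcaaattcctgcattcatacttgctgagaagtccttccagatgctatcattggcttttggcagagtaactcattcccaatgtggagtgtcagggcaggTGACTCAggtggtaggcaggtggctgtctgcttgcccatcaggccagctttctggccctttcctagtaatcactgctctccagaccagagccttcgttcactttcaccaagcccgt
PRICKLE1 opening in DU-145, chr12:42474401-42474700: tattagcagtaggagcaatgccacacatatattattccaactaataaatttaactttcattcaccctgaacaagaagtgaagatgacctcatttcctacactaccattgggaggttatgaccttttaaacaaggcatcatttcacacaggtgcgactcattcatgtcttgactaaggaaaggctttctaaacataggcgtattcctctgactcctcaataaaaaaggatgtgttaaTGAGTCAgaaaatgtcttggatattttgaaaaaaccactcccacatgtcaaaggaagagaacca
PRICKLE2 opening in DU-145, chr3:64084701-64085000: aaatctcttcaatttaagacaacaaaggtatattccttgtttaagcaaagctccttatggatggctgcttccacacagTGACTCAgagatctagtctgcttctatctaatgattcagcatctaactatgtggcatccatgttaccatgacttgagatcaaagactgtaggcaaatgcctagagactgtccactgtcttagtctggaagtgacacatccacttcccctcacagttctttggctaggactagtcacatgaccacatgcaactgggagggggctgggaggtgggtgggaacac
MARK1 opening in DU-145, chr1:220552901-220553200: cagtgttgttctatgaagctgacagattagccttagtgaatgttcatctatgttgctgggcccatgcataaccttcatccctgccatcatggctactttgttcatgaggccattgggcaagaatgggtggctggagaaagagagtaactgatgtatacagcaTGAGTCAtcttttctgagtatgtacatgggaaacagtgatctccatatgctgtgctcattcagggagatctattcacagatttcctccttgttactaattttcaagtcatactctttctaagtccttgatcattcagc
LLGL2 closing in DU-145, chr17:75557201-75557500: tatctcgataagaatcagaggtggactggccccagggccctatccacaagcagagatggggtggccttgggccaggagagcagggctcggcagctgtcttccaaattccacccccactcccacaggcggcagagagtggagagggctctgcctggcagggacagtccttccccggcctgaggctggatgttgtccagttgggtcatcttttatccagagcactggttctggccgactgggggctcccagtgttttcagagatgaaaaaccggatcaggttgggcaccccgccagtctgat
RAC1 closing in BT-549, chr7:6385401-6385700: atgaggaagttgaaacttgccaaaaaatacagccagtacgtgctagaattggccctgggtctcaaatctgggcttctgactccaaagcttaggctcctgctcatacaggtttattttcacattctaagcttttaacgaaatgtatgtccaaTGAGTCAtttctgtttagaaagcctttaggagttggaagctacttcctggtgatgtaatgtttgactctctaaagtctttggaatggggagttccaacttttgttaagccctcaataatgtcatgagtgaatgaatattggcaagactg
CELSR1 closing in BT-549, chr22:46528201-46528500: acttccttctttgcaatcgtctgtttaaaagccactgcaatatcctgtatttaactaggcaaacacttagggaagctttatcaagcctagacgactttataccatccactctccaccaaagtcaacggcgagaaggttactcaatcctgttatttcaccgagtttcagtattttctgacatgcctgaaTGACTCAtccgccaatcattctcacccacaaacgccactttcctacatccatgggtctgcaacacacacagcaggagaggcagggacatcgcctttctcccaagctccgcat

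The motif TGACTCA, read on both strands in such windows of 300 bases, was in 30.0% of all DU-145 regions and in 101 of the members' 437 (23.1%). Among the members' opening regions in DU-145 it was in 31 of 56 (55.4%), and among all opening DU-145 regions beyond 1 kb of every TSS in 46.5%. Of the members' 13 closing DU-145 regions, 1 held it (7.69%), beside 18.2% of all closing regions beyond 1 kb. In BT-549 the motif was in 17.2% of all regions and in 39 of the members' 316 (12.3%). It was in 9 of the members' 23 closing BT-549 regions (39.1%) and in 5 of the 32 opening ones (15.6%), of which 14 lay at SCRIB. Among all BT-549 regions beyond 1 kb of every TSS the shares were close, at 27.9% of the closing and 25.9% of the opening ones, and the difference among the members was not tested. The E-box CAGGTG, a sequence that ZEB and SNAI factors bind, was in 16 of the members' 32 opening BT-549 regions (50%) and in 2 of the 23 closing ones (8.7%), beside 33.2% and 8.64% of all opening and closing BT-549 regions beyond 1 kb and 19.2% of all BT-549 regions. It was in 25.9% of the members' BT-549 regions as a whole. In DU-145 it was in 35.7% of the members' regions and 26.6% of all regions. The members' DU-145 regions held it in 25 of 56 opening (44.6%) and 4 of 13 closing ones (30.8%), beside 26.7% and 19.4% of all such DU-145 regions beyond 1 kb. The motif AACCGGTT, which grainyhead factors bind, was in none of the members' regions and in 0.0821% of all DU-145 and 0.114% of all BT-549 regions. These shares describe letters in the windows and not the binding of a factor.

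DLG2, a membrane-associated scaffold of the Scribble complex, had the largest opening in DU-145. In the highest bin of chr11:83448601-83449800, intergenic and 13.3 kb from the nearest of 44 DLG2 TSSs, CPM was 0.194, 0.112 and 0.0647 with vehicle and 2.22, 1.76 and 2.22 with DOX. The region lay past the 3' end of DLG2, which runs on the minus strand from 85628335 to 83455012. The canonical TSS, at 85627344, lay at the far end of the gene. The region's log2 change was 4.06 ± 0.276 (SE, adjusted p = 2.17e-14). The PRICKLE1 region chr12:42474401-42474800, in an intron 4.89 kb from a TSS of this planar polarity gene, had 0.239, 0.314 and 0.533 with vehicle and 2.83, 1.85 and 2.24 with DOX (log2 change 2.72 ± 0.289, adjusted p = 7.84e-10). The PRICKLE2 region chr3:64084501-64085000, in an intron of the noncoding genes LINC00994 and PRICKLE2-AS1 and 15.3 kb from a PRICKLE2 TSS, had 0.358, 0.708 and 0.356 with vehicle and 3.02, 1.93 and 2.97 with DOX (log2 change 2.51 ± 0.275, adjusted p = 1.52e-09). At MARK1, an intronic region 24.2 kb from a TSS, chr1:220552901-220553300, had 0.414, 0.207 and 0.111 with vehicle and 1.45, 1.12 and 1.42 with DOX (log2 change 2.42 ± 0.356, adjusted p = 5.16e-07). These 4 regions had been chosen for a lack of overlap between the groups and for holding TGACTCA. All 4 were called under all 5 scalings. A MARK3 region (log2 change 2.76) and a CRB1 region (2.35) opened in the same way and did not hold the motif.

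Among DU-145 regions whose highest bin reached a mean coverage of 20 and whose groups stood apart, the largest closing was inside LLGL2, a partner of SCRIB that restricts atypical protein kinase C. The region chr17:75556901-75558300 lay in an intron, 0.455 kb upstream of an internal TSS and 31.7 kb from the canonical TSS of the gene. Its highest bin had 7.56, 7.20 and 8.07 CPM with vehicle and 0.651, 0.781 and 0.558 with DOX, a log2 change of -3.29 ± 0.126 (SE, adjusted p = 1.52e-20). Vehicle and DOX libraries were far apart here, while the region at the canonical TSS, chr17:75524401-75526900, had 8.98, 10.1 and 11.2 with vehicle and 8.06, 9.09 and 7.54 with DOX and did not pass the test (log2 change -0.07 ± 0.0892, adjusted p = 0.517). A further region at a start site 6.25 kb into the gene, chr17:75531601-75532100, opened (log2 change 1.50 ± 0.307, adjusted p = 8.33e-05). LLGL2 thus held regions that moved in opposite directions. In BT-549 the only LLGL2 region at a TSS lay at the canonical start, chr17:75525001-75526100.

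Of the 13 closing DU-145 regions, 4 lay near planar polarity genes, 3 near Crumbs complex genes, 3 near Scribble complex genes, 2 near Par complex genes and 1 near a kinase gene. The intronic PATJ region chr1:61887101-61888200, at a scaffold of the Crumbs complex, went from 9.30, 8.76 and 6.99 with vehicle to 2.61, 1.81 and 1.62 with DOX (log2 change -2.03). The PRKCI region chr3:170233401-170234100, in an intron of this gene for atypical protein kinase C iota, went from 4.63, 4.61 and 4.71 to 1.16, 1.34 and 1.38 (log2 change -1.68). Both were taken from the regions without overlap between vehicle and DOX libraries. A DLG2 intron (log2 change -2.19), a region near LIN7C in an intron of LGR4 (-1.26) and a region near PRKCZ at a TSS of FAAP20 (-1.10) also closed, the last 2 in the bodies of neighbouring genes.

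In BT-549, among regions whose vehicle and DOX libraries stood apart and whose mean coverage reached 20, the largest opening was in an intron of TIAM1, chr21:31354301-31355500, with 4.24, 3.09 and 2.73 CPM with vehicle and 12.8, 16.1 and 10.3 with DOX (log2 change 1.83 ± 0.148, adjusted p = 3.33e-10). Opening regions at promoters were those of MARK2 (log2 change 1.61), PARD6B (1.01) and STK11 (1.02) among the largest. The DVL2 and DLG4 regions with the largest opening, at log2 changes of 1.12 and 1.06, lay on start sites of GABARAP and PHF23, neighbours within the same 50 kb. Of these 6, the regions at TIAM1, MARK2 and DVL2 were called under all 5 scalings. At SCRIB, the 14 opening regions were shallow, with group means in their highest bin of 4.41 to 8.98 in coverage, and 11 of them did not overlap between vehicle and DOX.

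Under the same limits, the largest closing in BT-549 was in an intron of PRICKLE2, chr3:64295501-64296100, with 2.57, 3.10 and 1.99 with vehicle and 0.984, 1.14 and 0.398 with DOX (log2 change -2.01 ± 0.382, adjusted p = 0.0002). The RAC1 intron region chr7:6385001-6386200 went from 8.46, 8.12 and 7.12 to 2.17, 2.46 and 1.47 (log2 change -1.66 ± 0.202, adjusted p = 4.31e-07). The CELSR1 intron region chr22:46527701-46528700 went from 5.55, 5.15 and 4.0 to 0.759, 1.52 and 0.918 (log2 change -1.56 ± 0.247, adjusted p = 2.07e-05). These 3 regions had been chosen for a lack of overlap between the groups. The RAC1 and CELSR1 regions were printed because they hold TGACTCA, and the PRICKLE2 region holds it too. All 3 were called under all 5 scalings. Regions near LIN7B (log2 change -1.89), DLG1 (-1.88) and a further CELSR1 site (-1.66) also closed, and the last of these was not called under all 5 scalings. PRICKLE2 therefore held an opening region in DU-145 and a closing region in BT-549, at different sites.

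**Figure D1:**
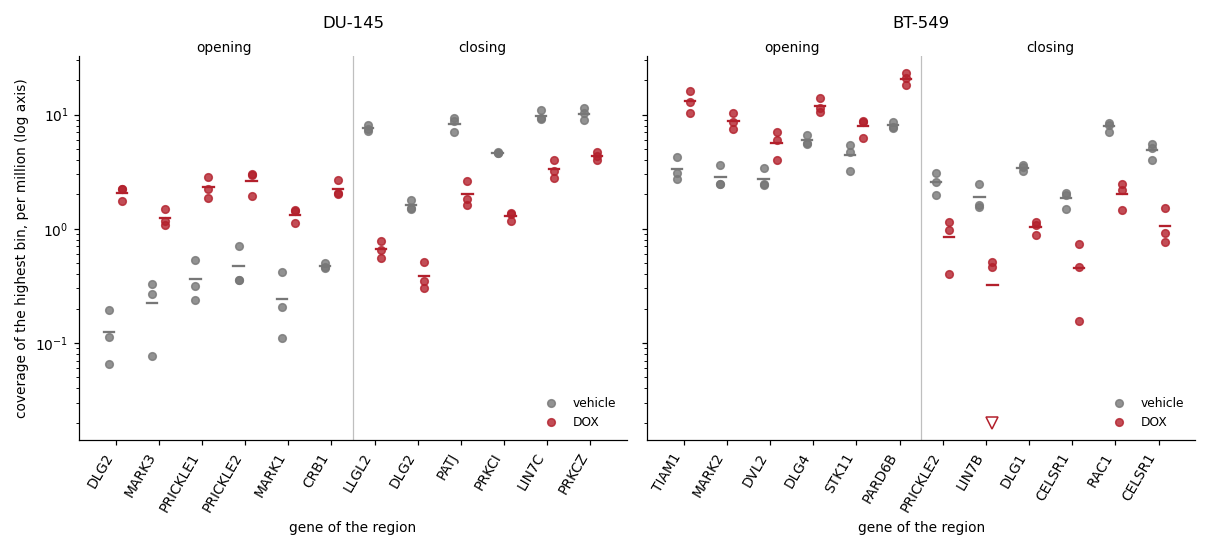
Scaled coverage (CPM) in the highest bin of the 24 member regions with the largest changes among those with a coverage of at least 20 and no overlap, 6 opening and 6 closing in each line, on a log axis, with 1 point per library, a bar at the group mean and an open triangle for a library at 0. The regions were chosen for that lack of overlap, and the LLGL2 region inside the gene falls from 7.20-8.07 to 0.558-0.781 in DU-145.

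**Figure D2:**
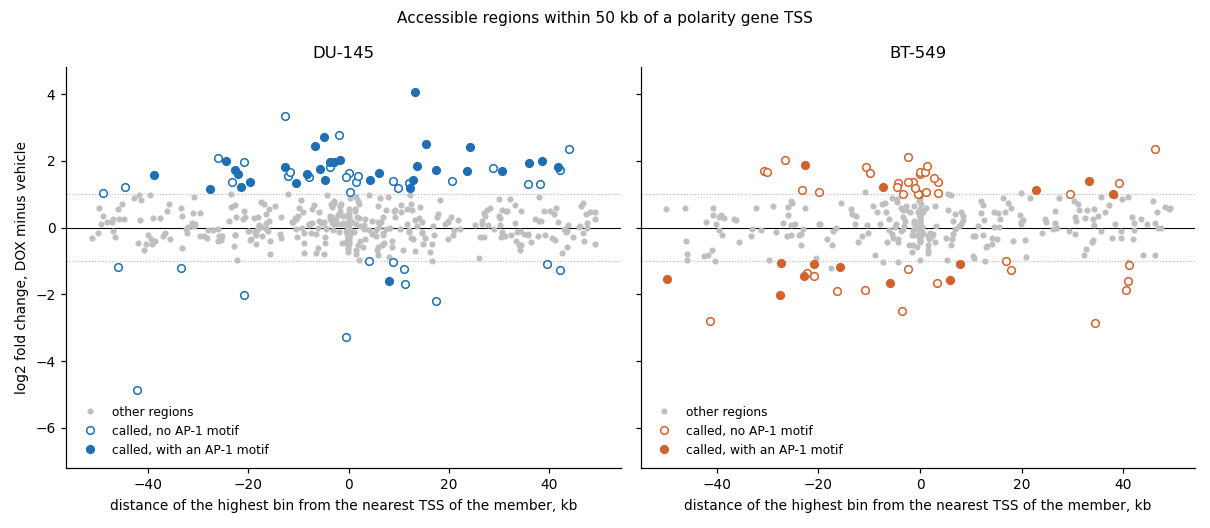
Log2 change with DOX of each member region against the distance of its highest bin from the nearest member TSS, for DU-145 and BT-549, with called regions filled where they hold the AP-1 motif and dotted lines at a fold of 2. In DU-145, 31 of 56 opening regions hold the motif, and in BT-549, 9 of 23 closing regions do.

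Promoter accessibility was then summed per gene over all bins within 1 kb of any TSS and tested over all protein-coding genes by the same edgeR test, with p-values adjusted by the Benjamini-Hochberg method. In DU-145, 41 members had promoter bins, with none at CRB1 and CRB2. With DOX, 6 of the 41 rose and 19 fell, beside 8.28% of all 14767 genes rising and 39.0% falling. The median log2 change of all genes was -0.17 and that of the members -0.20. With TMM factors, which are set from the bulk of the promoters, 11 rose and 6 fell, beside 2531 and 2637 of all genes. The split was 11 and 6 with loess offsets, 10 and 12 with GC offsets and 10 and 6 with DESeq2. Over all genes it was 2365 and 2145, 2422 and 2627, and 2371 and 2553 in these settings. Called under all 5 scalings were 6 rises, at CELSR3, PRICKLE2, STK11, DVL2, MARK1 and PRICKLE1, and 4 falls, at RAC1, LIN7C, LLGL2 and PALS1. Over all 14767 genes these counts were 1084 rises and 1702 falls.

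In the apical modules the DU-145 calls depended on the scaling. With the library sum edgeR called 0 rises there, and 0 at an unadjusted p under 0.05. With TMM, loess and GC offsets and with DESeq2, PARD3B of the Par complex (log2 change 0.26 to 0.30) and CRB3 of the Crumbs complex were called as rises. With the library sum, 6 of 8 Par complex genes fell, with the largest log2 changes at PARD3 (-0.44), the scaffold that recruits the complex to junctions, and PRKCI (-0.40), the kinase subunit. PRKCI had 5.75, 5.29 and 5.28 CPM with vehicle and 4.08, 4.23 and 4.05 with DOX (log2 change -0.40 ± 0.0711, adjusted p = 7.31e-06). The groups did not overlap, although the call was lost under at least 1 other scaling, as were those of the other 5 Par complex genes. Of 6 Crumbs complex genes tested, 2 fell. PALS1, the adaptor that links CRB to PATJ, had 7.14, 7.69 and 7.08 with vehicle and 5.47, 5.11 and 5.09 with DOX (log2 change -0.49 ± 0.0627, adjusted p = 1.44e-08). LIN7C, a small PDZ-domain partner of PALS1, had 2.55, 2.06 and 2.35 with vehicle and 1.61, 1.40 and 1.49 with DOX (log2 change -0.63 ± 0.118, adjusted p = 1.96e-05). Both stood apart without overlap. CRB3, the epithelial Crumbs protein, had values of 1.02 to 1.49 with vehicle and 1.31 to 1.58 with DOX and overlapped between the groups. It did not pass with the library sum (log2 change 0.25, adjusted p = 0.103), but it was called as a rise under the 4 other scalings, at log2 changes of 0.36 to 0.42 and adjusted p of 0.00864 to 0.0244.

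Of the 8 Scribble complex genes, 5 fell in DU-145, at LLGL2, LLGL1, DLG3, DLG2 and DLG1. LLGL2 had 2.81, 2.87 and 3.34 with vehicle and 1.88, 2.19 and 1.83 with DOX (log2 change -0.61 ± 0.0735, adjusted p = 3.53e-09), and this sum includes the closing internal region described above. The fall of DLG1 (log2 change -0.17) became 0.017 with GC offsets and 0.089 with loess offsets. SCRIB itself had a log2 change of 0.10 (adjusted p = 0.399), and it was called as a rise with TMM factors (0.27), loess offsets (0.30) and DESeq2 (0.27). All 4 GTPase module genes fell in this scaling. RAC1, which drives lamellipodia, had 3.28, 3.01 and 3.03 with vehicle and 1.99, 1.89 and 2.03 with DOX (log2 change -0.65 ± 0.0973, adjusted p = 2.88e-07). That was the largest promoter fall among the members, without overlap and under all 5 scalings. TIAM1, an exchange factor for RAC1, fell by 0.31 over all its start sites. The region at its distal start, 215.0 kb from the canonical one, had a log2 change of -0.39 (adjusted p = 1.67e-05), and the region at the canonical TSS one of 0.33 (adjusted p = 0.022).

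With the library sum, the DU-145 rises lay in the kinase and planar polarity modules, and these 6 were the ones that held under all 5 scalings. Of 5 Par-1 and LKB1 genes, STK11 and MARK1 rose, and no fall was called by edgeR or DESeq2, although 1 had an unadjusted p under 0.05. STK11 had 0.976, 1.08 and 1.04 with vehicle and 1.38, 1.44 and 1.45 with DOX (log2 change 0.46 ± 0.0878, adjusted p = 2.06e-05). The rise came with the region at the upstream start site, chr19:1175801-1178100, which opened (log2 change 1.07, adjusted p = 1.87e-10), while the region at the canonical TSS had a log2 change of 0.07 (adjusted p = 0.639). MARK1 had 1.48, 1.59 and 1.65 with vehicle and 1.93, 1.80 and 2.10 with DOX (log2 change 0.30 ± 0.0925, adjusted p = 0.00575), a call that was lost without DOX replicate 3. Both genes stood apart between the groups.

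Of 10 planar polarity genes, CELSR3, PRICKLE2, DVL2 and PRICKLE1 rose and CELSR2 and CELSR1 fell. CELSR3, a cadherin with a receptor-like membrane domain, had 2.24, 2.49 and 2.10 with vehicle and 3.28, 3.46 and 3.14 with DOX (log2 change 0.53 ± 0.103, adjusted p = 3.70e-05). The highest bin of that region lay 1.06 kb upstream of the CELSR3 TSS, at a start site of LINC02585. PRICKLE2 had 0.794, 0.765 and 0.600 with vehicle and 1.01, 0.925 and 1.08 with DOX (log2 change 0.48 ± 0.136, adjusted p = 0.00335). PRICKLE1 had 1.33, 1.43 and 1.38 with vehicle and 1.63, 1.62 and 1.73 with DOX (log2 change 0.26 ± 0.0793, adjusted p = 0.00556). Vehicle and DOX libraries did not overlap at any of these 3 genes.

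**Figure D3:**
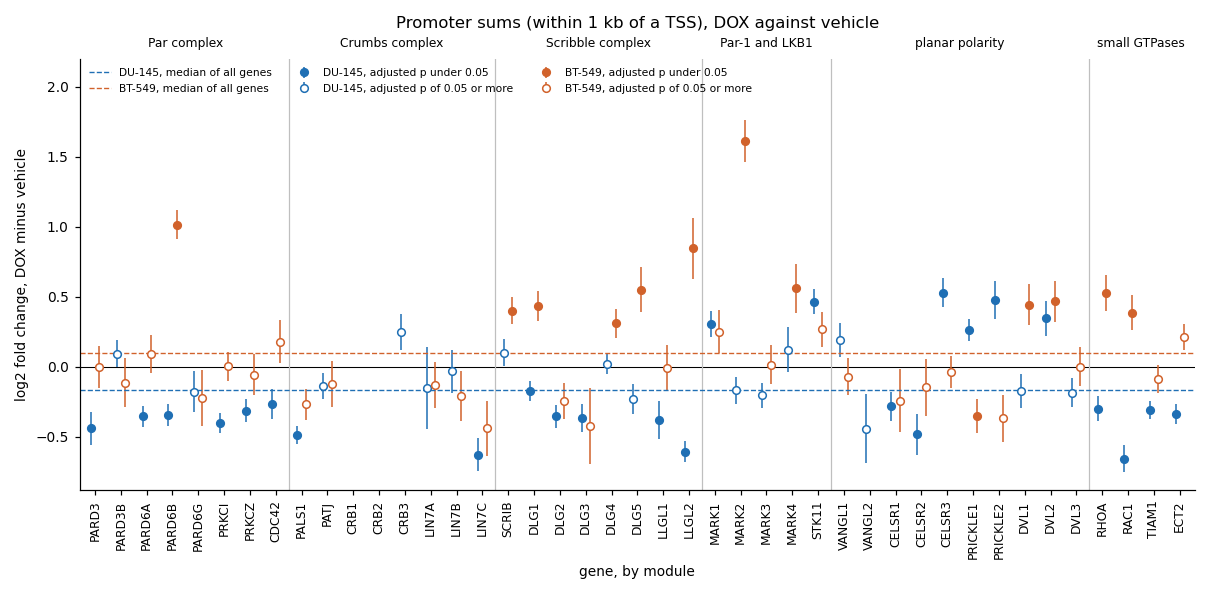
Log2 change with DOX (± SE) of the promoter sum of each member, by module, for both lines, with the median of all genes as a dashed line. Filled points passed the test. In DU-145 RAC1 lies lowest at -0.65 and CELSR3 highest at 0.53, and in BT-549 MARK2 lies highest at 1.61.

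In BT-549, 39 members had promoter bins, with none at CRB1, CRB2, CRB3 and VANGL2. With DOX, 12 of the 39 rose and 1 fell, beside 18.7% of all 14050 genes rising and 6.69% falling. The median log2 change was 0.0013 over the members and 0.096 over all genes. The counts were 8 rising and 4 falling with TMM factors, 8 and 5 with loess offsets, 6 and 3 with GC offsets, and 7 and 2 with DESeq2. Over all genes they were 1724 and 1460, 1659 and 1571, 1629 and 1481, and 1609 and 1284 in these settings. MARK2, PARD6B, LLGL2 and RHOA rose and PRICKLE1 fell under all 5 scalings, beside 1377 rises and 857 falls of all 14050 genes. MARK2, a kinase that phosphorylates microtubule-associated proteins and PAR-3, rose most. It had 1.59, 1.43 and 1.28 CPM with vehicle and 4.92, 3.99 and 4.29 with DOX (log2 change 1.61 ± 0.150, adjusted p = 3.75e-10). PARD6B, an adaptor of the Par complex, had 3.52, 3.90 and 3.36 with vehicle and 7.53, 7.60 and 6.70 with DOX (log2 change 1.01 ± 0.102, adjusted p = 2.12e-09). Both were more than the replicate spread apart, and PARD6B was the 1 called gene among 8 of its module.

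Of 8 Scribble complex genes, 5 rose in BT-549. SCRIB, the scaffold after which the complex is named, had 2.19, 1.93 and 1.85 with vehicle and 2.91, 2.55 and 2.45 with DOX (log2 change 0.40 ± 0.0963, adjusted p = 0.00186). DLG1 had 3.77, 3.60 and 3.88 with vehicle and 4.59, 5.28 and 5.32 with DOX (log2 change 0.43 ± 0.109, adjusted p = 0.00283). LLGL2 had 0.963, 1.19 and 1.30 with vehicle and 1.85, 2.15 and 2.17 with DOX (log2 change 0.85 ± 0.218, adjusted p = 0.00354). None of the 3 overlapped, and LLGL2 kept its call under all 5 scalings while SCRIB and DLG1 lost theirs under at least 1. DLG5 (0.55) and DLG4 (0.31) were the others. In the GTPase module RHOA and RAC1 rose. RHOA, which drives actomyosin contraction, had 3.10, 3.44 and 3.29 with vehicle and 5.12, 3.69 and 5.28 with DOX (log2 change 0.53 ± 0.128, adjusted p = 0.00216). RAC1 had a log2 change of 0.39 (adjusted p = 0.0204). In the kinase module MARK4 (0.56) rose beside MARK2, and STK11 had a log2 change of 0.27 (adjusted p = 0.116). In the planar module DVL2 (0.47) and DVL1 (0.44), cytoplasmic transducers of Wnt signals, rose. PRICKLE1 fell, with 2.23, 2.08 and 2.15 with vehicle and 2.06, 1.64 and 1.39 with DOX (log2 change -0.35 ± 0.120, adjusted p = 0.0273). Its call was lost without vehicle replicate 1, vehicle replicate 3, DOX replicate 2 or DOX replicate 3. Of 5 Crumbs complex genes tested in BT-549, 0 passed by edgeR's quasi-likelihood test with the library sum, where 2 had an unadjusted p under 0.05 with lower values, and DESeq2 called 1 fall, at PALS1. The same edgeR test with TMM, loess and GC offsets called PALS1 (log2 change -0.39 to -0.35) and LIN7C (-0.54 to -0.52) as falls.

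Distal accessibility, the sum of bins between 1 and 50 kb from the TSSs, held promoters of neighbouring genes as well as sites without any TSS, and neighbouring members such as DLG4 and DVL2 shared bins. In DU-145, 42 members had distal bins, with none at LIN7A. With DOX 9 of the 42 rose and 11 fell, beside 32.2% of all genes rising and 23.6% falling, with medians of -0.051 over the members and 0.036 over all genes. With TMM factors and with DESeq2 9 rose and 18 fell. Over all 18454 genes the counts were 5393 and 5293 with TMM factors and 5257 and 5151 with DESeq2. Without bins at TSSs of other genes 15 members rose and 6 fell, beside 9213 and 2012 of 17689 genes. PRICKLE1 rose most, over 11 bins, with 0.185, 0.276 and 0.252 CPM with vehicle and 0.859, 0.750 and 0.719 with DOX (log2 change 1.68 ± 0.196, adjusted p = 1.83e-09). PARD3B, a paralogue of PARD3, had 10 bins with 0.175, 0.257 and 0.193 with vehicle and 0.671, 0.664 and 0.565 with DOX (log2 change 1.55 ± 0.214, adjusted p = 6.72e-08). CRB1, whose promoter had no bins, had 0.431, 0.421 and 0.464 with vehicle and 0.800, 0.630 and 0.680 with DOX (log2 change 0.68 ± 0.105, adjusted p = 6.85e-07). All 3 stood clear of the vehicle libraries, and CRB1 lost its call under at least 1 scaling. PRICKLE2 had 0.651, 0.650 and 0.573 with vehicle and 0.885, 0.791 and 0.863 with DOX (log2 change 0.43 ± 0.0833, adjusted p = 2.92e-05). MARK3 rose by 0.30 ± 0.0631 on the log2 scale (adjusted p = 0.000107). RHOA (0.43), TIAM1 (0.29), STK11 (0.27) and DLG5 (0.23) were the other rises, and none of the 9 changed direction without bins at other TSSs. That setting removed no bin of PRICKLE1, PARD3B, CRB1 or DLG5, so it could not test them. It also moved the median of all genes up to 0.31, so rises were likely to stay rises.

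The falls in DU-145 distal accessibility were smaller. LIN7C had 1.89, 2.14 and 2.0 with vehicle and 1.56, 1.60 and 1.38 with DOX (log2 change -0.41 ± 0.0707, adjusted p = 4.35e-06). PRKCI had 1.21, 1.22 and 1.29 with vehicle and 0.925, 0.952 and 0.953 with DOX (log2 change -0.39 ± 0.0699, adjusted p = 7.96e-06). Both genes fell at the promoter as well. CELSR2, a planar polarity cadherin, had 1.26, 1.31 and 1.16 with vehicle and 0.930, 0.958 and 0.997 with DOX (log2 change -0.37 ± 0.0702, adjusted p = 2.09e-05), and it too fell at the promoter. PRKCZ (-0.30), which encodes the zeta form of atypical protein kinase C, and CELSR3 (-0.27) fell as well and lost their calls without bins at other TSSs, at adjusted p = 0.0871 and 0.0715. DLG3, PATJ, DVL3, ECT2, CRB3 and SCRIB completed the list, and the changes of CRB3, DVL3 and SCRIB turned to 0.27, 0.25 and 0.24 without bins at other TSSs. CELSR3 thus rose at the promoter and fell over the distal bins.

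In BT-549, 42 members had distal bins, with none at PARD3B. With DOX 14 of the 42 rose and 10 fell, beside 18.3% of all genes rising and 19.4% falling, with medians of 0.058 over the members and -0.012 over all genes. Without bins at TSSs of other genes, 5 rose and 12 fell, beside 1179 and 3512 of 13816 genes. With GC offsets 12 rose and 6 fell, beside 2809 and 2624 of 16437 genes. SCRIB had 1.24, 1.28 and 1.15 CPM with vehicle and 2.17, 1.98 and 2.14 with DOX over 179 bins (log2 change 0.78 ± 0.0816, adjusted p = 7.77e-10). STK11 had 1.46, 1.71 and 1.44 with vehicle and 2.46, 2.60 and 2.57 with DOX over 336 bins (log2 change 0.73 ± 0.0781, adjusted p = 1.23e-09). DVL1 had 1.61, 1.64 and 1.49 with vehicle and 2.32, 2.17 and 2.34 with DOX (log2 change 0.53 ± 0.0776, adjusted p = 8.22e-07). These 3 were without overlap and kept their calls without bins at other TSSs, at log2 changes of 1.12, 0.47 and 0.51. DLG4 (0.57) and DVL2 (0.52) also rose, but had -0.19 and -0.17 without those bins. The rises of MARK4 (0.42), LIN7B (0.35) and MARK2 (0.26) turned in the same way, to -0.86, -0.014 and -0.34. TIAM1 rose by 0.48 in both settings, which held the same 68 bins for this gene and so did not test it. By module, 4 of 5 kinase genes and 4 of 8 Scribble complex genes rose in the full sum.

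PRICKLE1 had the largest distal fall in BT-549, over only 5 bins, with 1.04, 1.02 and 0.993 CPM with vehicle and 0.192, 0 and 0.232 with DOX (log2 change -2.80 ± 0.547, adjusted p = 8.00e-05). CELSR2 had 2.25, 2.46 and 2.53 with vehicle and 1.54, 1.83 and 1.55 with DOX (log2 change -0.56 ± 0.0905, adjusted p = 5.07e-06). PRICKLE2 had 1.94, 2.01 and 1.89 with vehicle and 1.35, 1.48 and 1.35 with DOX (log2 change -0.48 ± 0.0852, adjusted p = 1.78e-05). The planar polarity genes thus made up 4 of the 10 falls, VANGL1, a membrane core protein, being the fourth. VANGL1 had 1.61, 1.53 and 1.59 with vehicle and 1.43, 0.975 and 0.943 with DOX (log2 change -0.50 ± 0.143, adjusted p = 0.0048), a call lost without DOX replicate 3. DLG1 had 1.29, 1.19 and 1.25 with vehicle and 0.959, 0.761 and 0.705 with DOX (log2 change -0.63 ± 0.151, adjusted p = 0.00112). Its distal bins fell while its promoter rose. PARD3, CRB2, MARK1, PATJ and RAC1 also fell, and without bins at other TSSs all 10 falls kept their direction and their calls. That setting removed no bin of PRICKLE1, VANGL1 or CRB2, so it could not test them. It also moved the median of all genes down to -0.21, so falls were likely to stay falls.

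**Figure D4:**
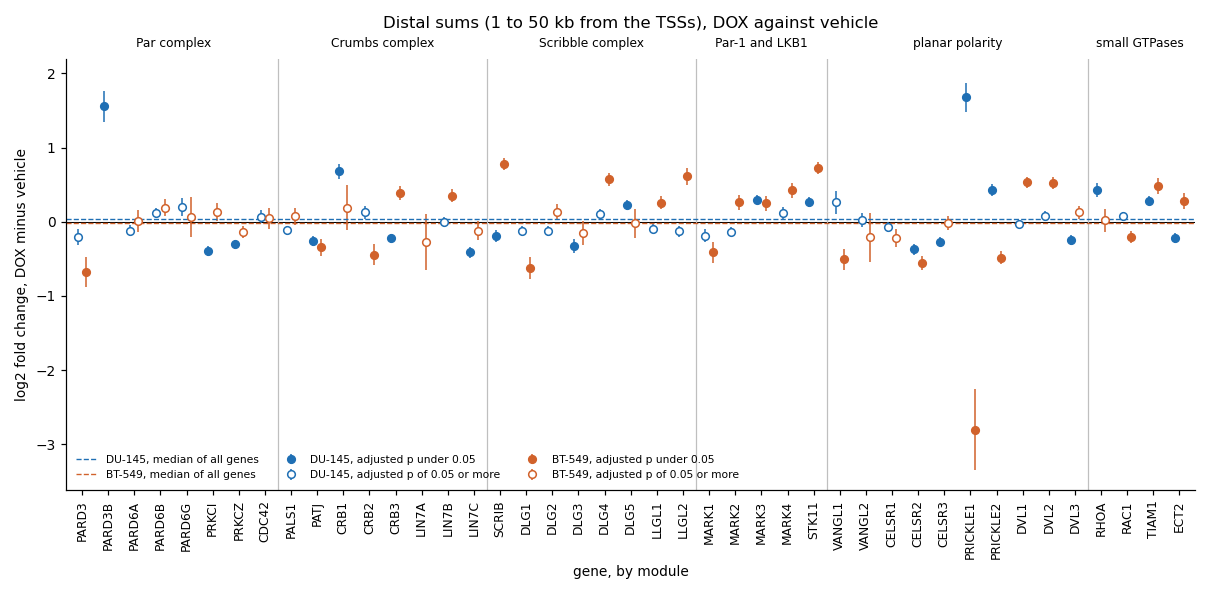
Log2 change with DOX (± SE) of the distal sum of each member, by module, for both lines, with the median of all genes as a dashed line and filled points for members that passed. PRICKLE1 lies highest in DU-145 at 1.68 and lowest in BT-549 at -2.80.

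The lines were compared in vehicle over the bins present in the tables of both, with positive values meaning higher in BT-549. Differences in DNA copy number and in accessibility cannot be told apart in this comparison, so the median of all genes within 5 Mb is given beside the named genes. For promoters, 38 members could be tested, and 14 were higher and 13 lower in BT-549, beside 32.9% of all genes higher and 39.3% lower. The median difference was -0.018 over the members and -0.059 over all genes. All 14 higher calls and 12 of the 13 lower ones held under all 5 scalings, beside 4096 higher and 4341 lower of all 13389 genes. Crumbs and Scribble genes stood at both ends. LIN7A had 0.465, 0.536 and 0.416 CPM in DU-145 and 4.57, 4.34 and 4.51 in BT-549 (log2 difference 3.21 ± 0.231, adjusted p = 6.86e-17, local median 0.062). LLGL2 had 7.70, 8.58 and 10.3 in DU-145 and 1.18, 1.46 and 1.60 in BT-549 (log2 difference -2.67 ± 0.127, adjusted p = 2.58e-23, local median -0.92). The lines did not overlap at either gene. The LIN7A bins overlap an exon of ACSS3, which has a TSS within 1 kb of them too. SCRIB was higher in BT-549 by 1.04 ± 0.101, next to a local median of 0.91.

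Of 9 planar polarity promoters, 6 were higher in BT-549 and 0 lower by edgeR, with 0 at an unadjusted p under 0.05 and 0 by DESeq2 in that direction. CELSR3 had 2.99, 3.35 and 2.84 in DU-145 and 8.19, 8.94 and 7.64 in BT-549 (log2 difference 1.43 ± 0.107, adjusted p = 2.66e-16, local median 0.49). DVL2 had 1.12, 1.16 and 1.22 in DU-145 and 2.86, 3.10 and 2.48 in BT-549 (log2 difference 1.28 ± 0.134, adjusted p = 1.18e-11, local median 0.14). VANGL1 had 2.02, 1.79 and 1.58 in DU-145 and 3.37, 3.70 and 3.83 in BT-549 (log2 difference 1.01 ± 0.121, adjusted p = 4.11e-10, local median 0.57). These 3 genes were without overlap between the lines, and VANGL2, its paralogue, had 8 promoter bins in DU-145 and none in BT-549. Among the promoters lower in BT-549, PALS1 had 11.9, 13.0 and 11.9 in DU-145 and 5.79, 6.07 and 6.30 in BT-549 (log2 difference -1.02 ± 0.0749, adjusted p = 1.35e-16, local median -0.53). MARK2 had 4.11, 3.88 and 4.30 in DU-145 and 2.05, 1.84 and 1.66 in BT-549 (log2 difference -1.14 ± 0.127, adjusted p = 5.81e-11, local median -0.21). PARD6A (-0.92, local median -0.59) and TIAM1 (-0.77, local median -0.57) were lower too. All of these stood apart between the lines.

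For some members the lines had promoter bins at different start sites, or 1 line had none. PRKCZ had 20 promoter bins in DU-145 and 15 in BT-549, and none was shared. The DU-145 region, chr1:2049301-2051400, was at the canonical TSS, and the BT-549 region, chr1:2132401-2134100, was at an internal TSS 82.9 kb downstream. CRB3 had 16 promoter bins in DU-145 and none in BT-549, and peak summits of the deposited lists lay within 1 kb of its TSSs in 3 of 3 DU-145 libraries of each group and in 0 of 3 in BT-549. The same held for VANGL2. CRB1 had no promoter summit in any library. CRB2 had one in 2 and 3 of the 3 DU-145 libraries and in 2 and 1 of the 3 BT-549 libraries with vehicle and DOX, but no promoter bin in either table. CELSR3, although called at its promoter, had a summit there in 1 and 0 of the 3 DU-145 libraries and in 0 and 2 of the 3 BT-549 libraries with vehicle and DOX. Over single libraries, 38 to 41 of the 43 members had a promoter summit.

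In distal bins of vehicle libraries, 15 of 40 members were higher and 15 lower in BT-549, beside 41.4% of all genes higher and 34.7% lower, with medians of -0.016 and 0.080. VANGL1 had 0.438, 0.612 and 0.565 in DU-145 and 3.44, 3.40 and 3.23 in BT-549 (log2 difference 2.62 ± 0.176, adjusted p = 6.51e-17, local median 0.81). PRICKLE2 had 0.899, 0.868 and 0.765 in DU-145 and 3.13, 3.36 and 3.48 in BT-549 (log2 difference 1.97 ± 0.0948, adjusted p = 1.30e-21, local median 0.20). Both planar genes were higher in each BT-549 library than in any DU-145 library and so was CELSR2 (1.22, local median 0.62). Of 9 planar genes, 5 were higher and 0 lower by edgeR, with 0 at an unadjusted p under 0.05 and 1 by DESeq2 in that direction. PATJ (0.87, local median 0.35) was higher as well, and so was SCRIB (0.81), next to a local median of 0.77. The lower genes were led by TIAM1, which had 4.22, 4.27 and 4.41 in DU-145 and 1.66, 1.52 and 1.45 in BT-549 (log2 difference -1.47 ± 0.0860, adjusted p = 8.26e-19, local median -0.55). DLG1 had 4.01, 3.57 and 4.17 in DU-145 and 1.69, 1.67 and 1.76 in BT-549 (log2 difference -1.20 ± 0.0950, adjusted p = 1.05e-14, local median 0.12). Neither gene overlapped between the lines. The kinases MARK3 (-0.91, local median -0.56) and MARK2 (-0.86, local median -0.23), and LLGL1 (-0.78, local median 0.69), were lower too, and 4 of the 5 kinase genes were lower in all. With distances counted from the canonical TSS only, DLG1 and MARK3 turned to 0.31 and 0.45.

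**Figure D5:**
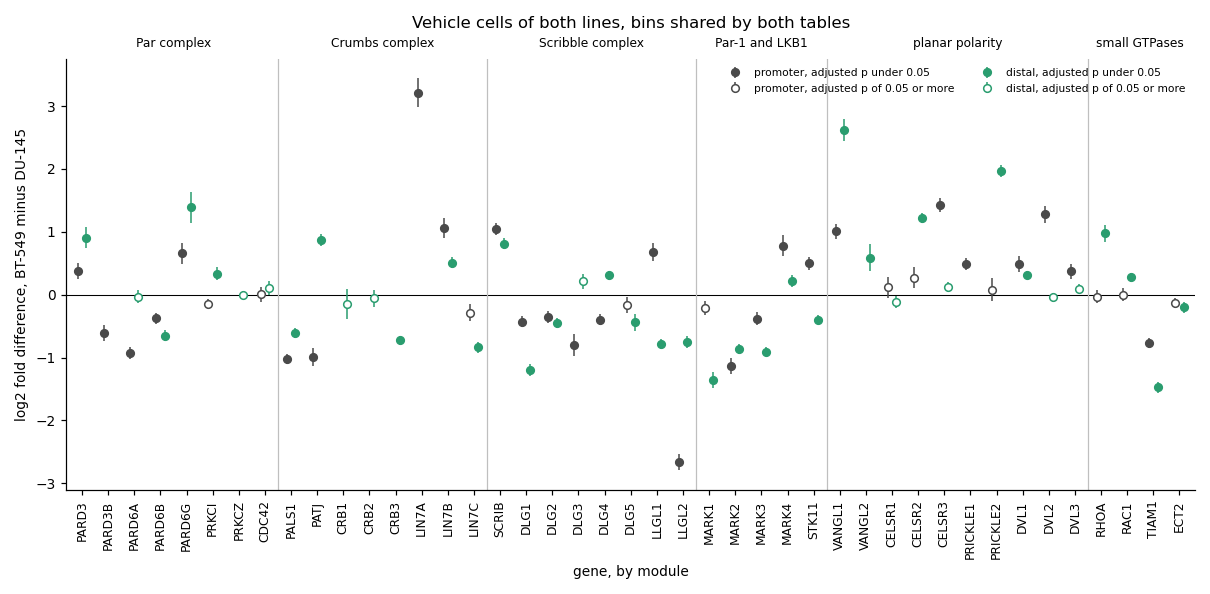
Log2 difference between the lines in vehicle (BT-549 minus DU-145, ± SE) of promoter and distal sums of each member, by module, in bins shared by both tables, with filled points for members that passed. LIN7A lies highest for promoters at 3.21 and LLGL2 lowest at -2.67, and VANGL1 lies highest for distal bins at 2.62.

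Whether the DOX effect itself differed between the lines was tested as an interaction in shared bins, with positive values meaning a higher log2 change in BT-549. At promoters 8 of 38 members had a higher and 3 a lower effect, beside 22.3% and 8.35% of all genes, with a median of 0.049 over the members and 0.14 over all genes. The split was 6 and 5 with TMM factors and with GC offsets, 5 and 5 with loess offsets and 6 and 6 with DESeq2. Over all 13389 genes it was 1810 and 1568 with TMM factors and 1656 and 1614 with GC offsets. It was 1410 and 1643 with loess offsets and 1834 and 1737 with DESeq2. MARK2 (1.56 ± 0.182, adjusted p = 1.58e-08), PARD6B (1.20 ± 0.126, adjusted p = 1.21e-09), RAC1 (0.85 ± 0.153, adjusted p = 3.58e-05), LLGL2 (0.85 ± 0.199, adjusted p = 0.000983) and RHOA (0.62 ± 0.153, adjusted p = 0.00176) had the higher effects that held under all 5 scalings. In the separate tests with the library sum, PARD6B, RHOA and RAC1 fell in DU-145 and rose in BT-549, but with TMM factors the DU-145 falls of PARD6B (adjusted p = 0.0671) and RHOA (0.265) and the BT-549 rise of RAC1 (0.0871) were lost. LLGL2 was summed over different bins in those tests, 43 in DU-145 and 11 in BT-549. In the 11 bins of the interaction test, DU-145 had 7.70, 8.58 and 10.3 CPM with vehicle and 8.34, 9.38 and 7.91 with DOX, which overlapped. The lower effects, which all held under the 5 scalings, were in planar polarity genes, at PRICKLE2 (-1.48 ± 0.313, adjusted p = 0.000328), PRICKLE1 (-0.79 ± 0.144, adjusted p = 4.36e-05) and CELSR3 (-0.75 ± 0.155, adjusted p = 0.000258). Over all 13389 genes, 1245 higher and 992 lower effects held under all 5 scalings. PRICKLE2 was tested over 11 shared bins, against 19 promoter bins in DU-145 and 32 in BT-549. Its whole promoter sum was not called in BT-549. Vehicle coverage summed over the 11 bins was 108.4 to 266.1 in DU-145 and 122.5 to 139.7 in BT-549. CELSR3 had a promoter summit in few libraries, as given above. The promoter of PRICKLE1 rose in DU-145 and fell in BT-549 under all 5 scalings. Which promoters moved the same way in both lines depended on the scaling. DVL2 rose in both with the library sum and GC offsets, and SCRIB did so with TMM factors, loess offsets and DESeq2. PALS1 was called as a fall in both lines under the 4 scalings other than the library sum, where its BT-549 change was -0.27 (adjusted p = 0.0675), and LIN7C was so called with TMM, loess and GC offsets.

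For distal sums, 13 of 40 members had a higher and 7 a lower DOX effect in BT-549, beside 14.7% and 24.2% of all genes, with medians of 0.12 over the members and -0.058 over all genes. With GC offsets the split was 14 and 4, beside 2909 and 2703 of all 15655 genes. With the sum over each line's whole table as library size it was 19 and 3, beside 4454 and 2711. VANGL1 (-1.52 ± 0.260, adjusted p = 9.10e-06), PRICKLE2 (-0.86 ± 0.136, adjusted p = 2.77e-06) and DLG1 (-0.62 ± 0.158, adjusted p = 0.00171) had the largest negative differences, of which VANGL1 held under all 5 scalings. LLGL2 (0.62), TIAM1 (0.58 ± 0.126, adjusted p = 0.000296), PRKCI (0.56) and SCRIB (0.50) had the largest positive ones. Without bins at other TSSs, 2 members had a higher and 12 a lower effect, beside 458 and 4958 of 12384 genes. There PRKCI and SCRIB turned to -0.27 and -0.084. TIAM1 and VANGL1 had the same values of 0.58 and -1.52. None of their shared bins lay at other TSSs, so this setting could not test them. In the separate tests with the library sum, PRICKLE1 and PRICKLE2 rose in DU-145 and fell in BT-549, and PATJ and CELSR2 fell in both lines. MARK3, STK11 and TIAM1 rose in both, and CRB3, SCRIB and ECT2 fell in DU-145 and rose in BT-549. Of these 10 genes, PRICKLE1, CELSR2, STK11, TIAM1 and SCRIB kept both calls under all 5 scalings, and the other genes lost the BT-549 call under at least 1. The 5 distal PRICKLE1 bins of BT-549 and the 11 of DU-145 are different bins, so this gene could not enter the distal interaction test.

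For comparison, and with calls by the library sum, a list of 25 related genes, including LKB1 cofactors, angiomotins, membrane-associated guanylate kinases, ciliary planar polarity effectors and Fat and Dachsous cadherins, was counted beside the members. At promoters 12 of 24 fell in DU-145, with CAB39L (-0.56), a scaffold of the LKB1 complex, having the smallest adjusted p, and 7 rose and 3 fell in BT-549, where CAB39L rose (0.39) and AMOT fell (-0.66). The shares of all genes called with the library sum are given above for each comparison. Under all 5 scalings 2 of the 12 DU-145 falls, 0 of the 7 BT-549 rises and all 3 BT-549 falls held. Over all genes 1702 falls of 14767 held in DU-145, and 1377 rises and 857 falls of 14050 in BT-549. In distal bins of DU-145, 11 of 25 rose and 4 fell, led by INVS (1.74 ± 0.131, adjusted p = 1.85e-14), FAT4 (1.17 ± 0.0996, adjusted p = 4.71e-13) and WWC1 (0.60 ± 0.0588, adjusted p = 2.63e-11). In BT-549, 2 of 22 rose, at FUZ (0.32) and AMOTL2 (0.20), and 6 fell, with DCHS1 (-0.50) having the smallest adjusted p. Under all 5 scalings 4 of the 11 distal rises and 3 of the 4 falls in DU-145 held, and 0 of the 2 rises and 1 of the 6 falls in BT-549. Over all genes 3753 distal rises and 3758 falls of 18454 held in DU-145, and 1880 and 1944 of 16437 in BT-549. In vehicle 8 of 24 promoters were higher in BT-549, led by CASK (1.35), and 12 were lower, led by WDPCP (-1.46), and of 21 distal sums 11 were higher, led by FAT4 (2.2), and 7 lower, led by MPP3 (-1.55). The DOX effect was higher in BT-549 at 7 and lower at 4 of 24 promoters, and higher at 1 and lower at 11 of 21 distal sums, with FAT4 (-1.54) having the smallest adjusted p.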

How the data were processed

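ATAC-seq fragments of 12 libraries were aligned by the authors to GRCh38 with bwa-mem and deduplicated with Picard, and peaks were called per replicate with MACS2 (2.2.7.1) at a q-value limit of 0.05. Peaks were merged, kept where at least 3 replicates held them and cut into 100-bp bins. Mean coverages were deposited for the bins, treated here as estimated counts, which need not be whole. The deposited peak lists give a fold enrichment and q-values at each summit, of which only the position was used. The design had assumed counts, and edgeR (4.0.16, R 4.3.3) was therefore run on coverages summed over a feature and rounded. Its p-values combine a counting term with a spread between replicates that is estimated partly across features. The counting term is only approximate, because the values are coverages and not counts.

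Bins were assigned to protein-coding genes of GENCODE 44, and features with a total under 10 were dropped. The library size was the column sum, for comparisons between the lines over the bins in both tables. The quasi-likelihood test (glmQLFit, robust) was fitted on all features, and p-values were adjusted over all of them by Benjamini-Hochberg. All groups entered the fits between the lines. Alternatives were TMM factors, loess and GC offsets, DESeq2 (1.42.0), other distal and TSS definitions, a replicate block and leaving out each library. Replicates with the same number did not deviate together, with correlations of -0.027 to 0.15 within each line, so they were not paired. The fits were tested on simulated data with known changes.

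All 43 members are accounted for. Values per library are given for up to 5 called members per direction and comparison by smallest adjusted p, and for up to 6 opening and 6 closing regions per line by largest change among those without overlap and with a mean of at least 20 in the highest bin, at most 2 per member. Other genes, such as LLGL2 in BT-549, and the regions at alternative start sites were named after their values were seen. The members, the marker list and the related genes were chosen with earlier results of these data known. Reference sequence came from GRCh38 chromosomes. Peak heights and 1 label field that calls the vehicle samples untreated were not used. A prostate marker and the sequence of 1 region are not reported here.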

Additional observations from a re-analysis of the deposited data

Results flagged for a closer look

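The results listed here passed the interaction test, that is, the log2 change with DOX differed between BT-549 and DU-145 at an adjusted p under 0.05 in edgeR's quasi-likelihood test. Values are BT-549 minus DU-145 on the log2 scale, and both lines' libraries of 3 per group entered the fit. The summed coverage over the shared bins moved with the groups, at 2145081 to 2758522 in the BT-549 libraries with DOX against 7435959 or more in the others. Its part in these values was not tested.

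At promoters the DOX effect was higher in BT-549 at MARK2 (1.56), PARD6B (1.20), LLGL2 (0.85), RAC1 (0.85), RHOA (0.62), DLG5 (0.55), DLG1 (0.45) and ECT2 (0.38). It was lower at PRICKLE2 (-1.48, over 11 shared bins), PRICKLE1 (-0.79) and CELSR3 (-0.75), all of them planar polarity genes.

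Over distal bins the effect was higher in BT-549 at LLGL2 (0.62), TIAM1 (0.58), PRKCI (0.56), SCRIB (0.50), CRB3 (0.45), DLG4 (0.41), DVL1 (0.41), MARK2 (0.36), STK11 (0.34), ECT2 (0.33), DVL2 (0.32), DVL3 (0.31) and LLGL1 (0.27). It was lower at VANGL1 (-1.52), PRICKLE2 (-0.86), DLG1 (-0.62), DLG5 (-0.51), PATJ (-0.48), CELSR2 (-0.43) and RAC1 (-0.33). RAC1, DLG1 and DLG5 thus had a higher effect at the promoter and a lower one over the distal bins, and the difference between the bin types was not tested.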

How the results depend on the processing

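Settings that moved a count of members or regions by over 1.5 times are given with the reported count in brackets, and the cause was not tested unless stated. With TMM factors, the counts were 11 rising [6] and 6 falling [19] promoters in DU-145, 4 falling [1] promoters in BT-549, 18 falling [11] distal sums in DU-145 and 5 lower [3] promoter effects in the interaction. With loess offsets, they were 11 rising and 6 falling DU-145 promoters, 5 falling BT-549 promoters, 30 opening [56] and 46 closing [13] DU-145 regions, 13 closing [23] BT-549 regions, and 5 higher [8] and 5 lower promoter effects. With GC offsets, they were 10 rising and 12 falling DU-145 promoters, 6 rising [12] and 3 falling BT-549 promoters, 32 closing DU-145 regions, 14 closing BT-549 regions, 6 falling [10] distal sums in BT-549, 5 lower promoter effects and 4 lower [7] distal effects. With DESeq2, they were 10 rising and 6 falling DU-145 promoters, 7 rising and 2 falling BT-549 promoters, 25 closing DU-145 regions, 18 falling DU-145 distal sums and 6 lower promoter effects. With the whole-table library sum, 13 promoter effects were higher and 3 distal effects lower. Without the fold limit of 2, 111 regions opened and 85 closed in DU-145 and 75 opened [32] in BT-549, which follows from the looser rule. Among all regions, 29363 of 79177 then opened and 13805 closed in DU-145, and 5642 of 46298 opened in BT-549. Without bins at other TSSs, 15 distal sums rose [9] and 6 fell in DU-145, 5 rose [14] in BT-549, and 2 distal effects were higher [13] and 12 lower. The counts over all genes in that setting are given with the distal results above. That setting reversed the log2 changes of DLG4 (-0.19), DVL2 (-0.17), LIN7B (-0.014), MARK2 (-0.34) and MARK4 (-0.86) in BT-549, of CRB3 (0.27), DVL3 (0.25) and SCRIB (0.24) in DU-145, of DLG4 (-0.28), DVL1 (-0.24), DVL2 (-0.30), DVL3 (-0.16), PRKCI (-0.27) and SCRIB (-0.084) in the interaction, and of MARK4 (-0.45) and PALS1 (0.25) between the lines, and it dropped other bins by construction. With the canonical TSS alone, reversed values were DLG3 (0.37) and TIAM1 (0.33) at DU-145 promoters, PATJ (0.017) and PRKCZ (0.17) in DU-145 distal sums, MARK2 (-0.24) and PARD3 (0.062) in BT-549 distal sums, DLG5 (0.64) in the distal interaction, DLG2 (0.0087) and STK11 (-0.35) at promoters between the lines, and DLG1 (0.31), MARK1 (0.66), MARK3 (0.45) and PALS1 (0.25) in distal sums between the lines. GC offsets reversed DLG1 at DU-145 promoters (0.017, and 0.089 with loess offsets), PATJ in the distal interaction (0.17) and VANGL2 in distal sums between the lines (-0.0060). Omitting the filter or fitting vehicle libraries alone moved no count by over 1.5 times.

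Leaving out 1 library at a time, the closing BT-549 regions numbered 14 to 22, with 14 without BT-549 vehicle replicate 2. Falling BT-549 distal sums numbered 6 to 9, with 6 without BT-549 DOX replicate 3. Rising BT-549 promoters numbered 7 to 12, with 7 without BT-549 vehicle replicate 1. Falling BT-549 promoters numbered 0 to 2, with 0 without vehicle replicate 1, vehicle replicate 3 or DOX replicate 3 and 2 without DOX replicate 1. Lower promoter effects numbered 3 to 5, with 5 without BT-549 DOX replicate 2. With the replicate number as a block, a pairing that the correlations did not bear out, all 16 counts stayed within 1.5 times, such as 21 [19] falling DU-145 promoters, and 136 of 137 named values kept their call, the exception being DLG5 in the distal interaction (-0.49, adjusted p = 0.0567). Depth limited BT-549 with DOX most, where 5.80 to 13.1% of the members' bins had a coverage under 1.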
